A study of Mus musculus with 4 samples.

Results

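Genes of solute carriers (Slc and Slco symbols) and of ATP-binding cassette proteins (Abca to Abcg symbols) were examined in ILC3s of the large intestine after activation of DR3. The members were all genes of the deposited table whose symbol begins in one of these ways, 55 of the 2179 genes listed. The ILC3s, which expressed GFP and lacked lineage markers, were sorted from lamina propria lymphocytes of Rag1-/- mice with a GFP reporter for ILC3s on the C57BL/6 background, on day 3 after PBS or after 1 µg of α-DR3, an agonistic antibody (clone 4C12) against the TL1A receptor. Both groups lacked *Rag1*, and with it mature T and B cells, and both carried the GFP reporter on 1 allele. The mice were littermates several weeks old and of both sexes. Each group had 2 libraries, each made from the pooled cells of several mice, and the comparison asked how treatment changed the transcriptome of the ILC3s.

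Solute carriers move nutrients, ions, vitamins and metabolites across the plasma membrane or the membranes of organelles, usually down a gradient or coupled to the movement of an ion. A family is numbered by sequence, and its members mostly share a class of substrate. ATP-binding cassette transporters use the hydrolysis of ATP to export lipids, drugs and conjugates. In lymphocytes such transporters set the uptake of amino acids, glucose and iron, and those of the lysosome return the products of protein breakdown to the cytosol.

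The values are FPKM, the sequenced fragments of a gene scaled to transcript length and to the mapped fragments of the library, which the authors averaged over the duplicates of each group. Only these group means were used, so a ratio of means below has no replicate error and no test, and the depth of the libraries is unknown. Every listed gene had a p-value under 0.05 in the authors' own comparison and a mean over 1 FPKM in either group, so the members had already been selected on these libraries for differing, and transporters that are not listed were not analysed. A gene was counted as higher or lower where the means differed at least 1.5-fold and either mean was over 5 FPKM. In bulk RNA, fewer cells that express a gene and less RNA per cell cannot be told apart.

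By this rule 13 of the 47 transporter genes over 5 FPKM were higher in α-DR3 and 21 were lower, while 13 lay within 1.5-fold. Of all 1638 listed genes over 5 FPKM, 31.6% were higher and 38.2% lower, against 27.7% and 44.7% of the transporters. The median log2 ratio of the transporters was -0.50, and that of all listed genes over 5 FPKM was 0.36. Without a filter the medians were -0.39 and 0.39, and with each group divided by its median ratio over the listed genes they were -0.89 and -0.03. Without a filter or scaling, 27 of the 55 transporters had a ratio above 1 and 28 below. That was 49.1% above 1, against 54.6% of all listed genes. The listed genes were selected for differing, so few ratios lay near 1 and the sign of such a median rests on few genes. With a mean over 10 FPKM the medians lay close together, at 0.31 for the transporters and 0.38 for all listed genes, and 46.2% and 46.9% of the genes past 1.5-fold were higher. The spread was alike, with a median absolute log2 ratio of 0.75 for transporters and 0.71 for all listed genes. The other 8 transporters did not exceed 5 FPKM in either group, and 7 of them had the higher mean in α-DR3. A gene under 1 FPKM in PBS could be listed only if it was higher in α-DR3, and 4 of these genes were under 1 FPKM in PBS, from *Slco5a1* at 0.295 to *Slc41a2* at 0.90.

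**Figure D1:**
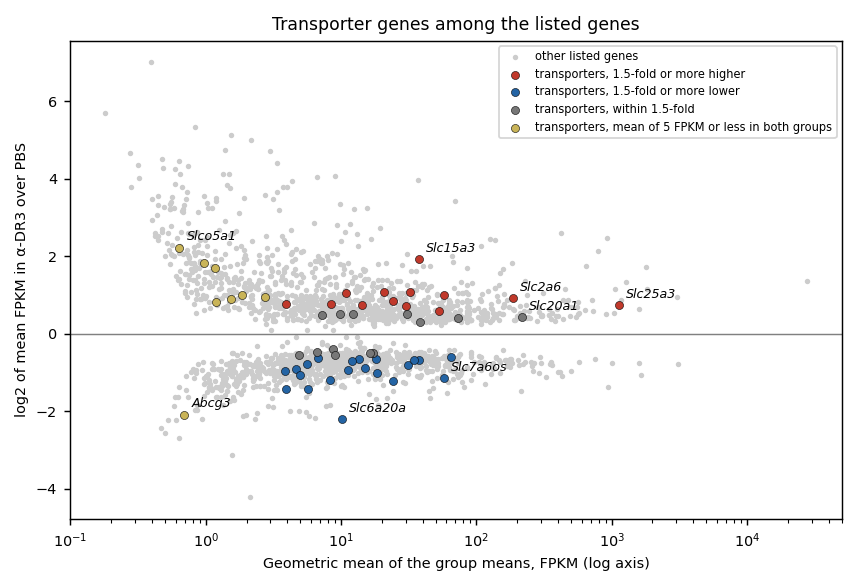
Each point is a listed gene, with the geometric mean of its group means in FPKM on a log axis across and the log2 ratio of its mean in α-DR3 to its mean in PBS upward. Transporter genes are coloured by their ratio and by whether either mean exceeds 5 FPKM, and they lie on both sides of 0, with *Slc15a3* the highest of those over 5 FPKM and *Slc6a20a* the lowest.

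The count of higher genes depended on how the groups were scaled, because the means were not rescaled between groups and summed over all listed genes to 108959 FPKM in PBS and 153670 in α-DR3. Dividing each group by its median ratio, over the listed genes, to the geometric mean of both groups lowered the α-DR3 values 1.31-fold relative to PBS and left 5 transporters higher and 27 lower. Dividing by the sums lowered them 1.41-fold and left 1 higher and 27 lower. Over all listed genes the counts were 237 higher and 762 lower by the median ratio, and 197 and 762 by the sums. Both scalings lower every α-DR3 value alike, so they could only add lower genes and remove higher ones. The 5 genes that stayed higher under the median ratio were *Slc15a3*, *Slc15a4*, *Slc30a9*, *Slc39a14* and *Slc41a1*, and *Slc15a3* alone did so under the sums. As every listed gene was selected for differing, neither scaling is set by unchanged genes. The cytokine gene *Il22*, with 17424 FPKM in PBS and 44537 in α-DR3, made up much of the sums, and without it 6 transporters were higher and 27 lower.

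**Figure D2:**
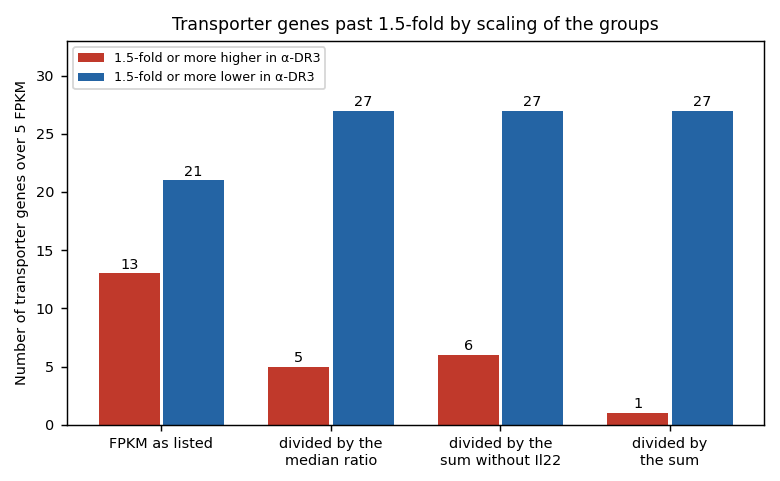
Bars give the number of transporter genes, of the 47 over 5 FPKM, that were at least 1.5-fold higher (red) or lower (blue) in α-DR3 when the group means were taken as listed or divided by the median ratio or by the sum over the listed genes, with and without *Il22*. The higher genes go from 13 to 5, 6 and 1, and the lower genes from 21 to 27.

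Among carriers of amino acids and peptides, the histidine and peptide transporters of endosomes and lysosomes were higher in α-DR3, and the imino acid carrier *Slc6a20a* was the lowest of the transporters over 5 FPKM relative to PBS. *Slc15a3* (ENSMUSG00000024737.2; chromosome 19 of GRCm38, 10839727 to 10859362 in GENCODE M21) had a mean of 19.3 FPKM in PBS and 73.5 in α-DR3, a ratio of 3.80. *Slc15a4* (chromosome 5, 127595664 to 127632897), whose product moves histidine and peptides out of the lysosome and takes part in signaling by endosomal Toll-like receptors, had 14.4 and 30.3 FPKM, a ratio of 2.10. *Slc15a2*, the peptide importer of the plasma membrane in the same family, lay within 1.5-fold, at 8.29 FPKM in PBS and 11.7 in α-DR3.

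The coding sequences of *Slc15a3* and *Slc15a4* were identical at 66.9% of the bases of the longer sequence, the second highest value among 54 pairs of listed members of a family. Their longest shared run was 19 bases, so the reads of these genes can be told apart over most of their length. The most similar 60 coding bases are shown because both genes were higher, with the 10 bases that differ in capitals. They lie in 1 coding exon of each gene, at chr19:10855978-10856037 on the plus strand for *Slc15a3* and at chr5:127601867-127601926 on the minus strand for *Slc15a4* (GRCm38).
Slc15a3: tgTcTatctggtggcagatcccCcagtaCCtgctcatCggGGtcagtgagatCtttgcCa
Slc15a4: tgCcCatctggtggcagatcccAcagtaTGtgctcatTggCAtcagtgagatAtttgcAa

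*Slc6a20a* (ENSMUSG00000036814.6; chromosome 9, 123634770 to 123678885), which encodes a proline carrier, had 21.8 FPKM in PBS and 4.74 in α-DR3, so it was 4.60-fold lower. *Slc38a2*, a carrier of small neutral amino acids that cells induce on amino acid shortage, was the most abundant transporter of this group in PBS, at 79.6 FPKM against 52.9 in α-DR3. Its 1.51-fold difference lay just past the limit. *Slc38a7*, a glutamine carrier of the lysosome, had 6.32 and 3.39 FPKM, while *Slc38a10* of the same family was within 1.5-fold at 63.4 and 84.6 FPKM, with a ratio above 1 as listed and after the median scaling and below 1 after division by the sums. *Slc6a12*, a carrier of betaine and GABA, was low in both groups, at 0.515 and 1.83 FPKM.

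Of the 5 metal ion carriers over 5 FPKM, 4 were higher in α-DR3 and 1 was lower, which was the highest share of higher genes among the substrate groups. After scaling by the median ratio 3 of the 4 were past 1.5-fold, all but *Slc39a4*, and after division by the sums none was. *Slc41a1*, a magnesium exchanger, had 40.7 FPKM in PBS and 81.6 in α-DR3. *Slc30a9*, a zinc carrier of mitochondria, had 22.3 and 47.0 FPKM. The zinc importers of the plasma membrane were lower in level, with 18.2 and 32.6 FPKM for *Slc39a4* and 7.56 and 15.6 for *Slc39a14*, which also carries iron and manganese. Their ratios lay between 1.79 and 2.11. *Slc11a2*, the importer of ferrous iron, went the other way, with 41.2 FPKM in PBS and 23.4 in α-DR3, a 1.76-fold difference. Among 16 other genes of iron and metal handling, 2 were listed and both were higher. *Fth1*, a subunit of the iron store ferritin, had 2180 FPKM in PBS and 4189 in α-DR3, and *Mt1*, the gene of a zinc-binding metallothionein, had 7.32 and 12.8. After scaling by the median ratio neither was past 1.5-fold, with ratios of 1.47 for *Fth1* and 1.34 for *Mt1*.

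Carriers of the inner mitochondrial membrane held the most abundant transporter of all. *Slc25a3* (ENSMUSG00000061904.6; chromosome 10, 91116574 to 91124059), which brings in phosphate for the synthesis of ATP, had 870.0 FPKM in PBS and 1449 in α-DR3, a ratio of 1.67. That ratio was 1.28 after scaling by the median ratio and 1.18 after division by the sums. *Slc25a3* made up 40.1% of the summed FPKM of the 55 genes in PBS and 49.4% in α-DR3. The sum was 1.35-fold higher in α-DR3 with this gene and 1.14-fold higher without it, against 1.41-fold for the sum over all listed genes. *Slc25a10*, the dicarboxylate carrier, had a ratio of 1.43, with 10.3 and 14.7 FPKM. *Slc25a29*, a carrier of basic amino acids, was at 1.32 and 2.62 FPKM.

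A pair of related mitochondrial carriers differed in opposite directions. *Slc25a24* and *Slc25a25* both encode calcium-regulated exchangers of ATP-Mg for phosphate. *Slc25a24* had 20.2 FPKM in PBS and 11.1 in α-DR3, 1.83-fold lower, and *Slc25a25* had 23.5 and 38.4 FPKM, 1.64-fold higher. After scaling by the median ratio *Slc25a25* was 1.25-fold higher, and after division by the sums 1.16-fold. Their coding sequences were identical at 64.6% of bases, with no shared run over 17 bases. The most similar 60 coding bases are shown with the 9 differing bases in capitals, at chr3:109166424-109166483 on the plus strand for *Slc25a24* and chr2:32416165-32416224 on the minus strand for *Slc25a25*, each within 1 coding exon.
Slc25a24: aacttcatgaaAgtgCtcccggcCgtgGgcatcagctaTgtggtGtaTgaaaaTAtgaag
Slc25a25: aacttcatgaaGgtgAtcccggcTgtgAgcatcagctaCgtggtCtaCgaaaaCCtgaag

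The listed sugar carriers were also split. *Slc2a6* (chromosome 2, 27021363 to 27027998), a hexose transporter of the lysosome, had 135 FPKM in PBS and 255 in α-DR3, a ratio of 1.89 that was 1.44 after scaling by the median ratio and 1.34 after division by the sums. *Slc2a8*, another intracellular hexose transporter, had 15.6 and 8.12 FPKM, 1.92-fold lower. Of 24 other genes of glycolysis, 8 were listed, with 3 higher, 3 lower and 2 within 1.5-fold. The higher ones were *Pfkfb3*, whose product makes an activator of glycolysis, at 21.8 and 73.6 FPKM, *Hk3*, a hexokinase, at 16.2 and 36.3, and *Hif1a*, a transcription factor for glycolytic genes, at 46.6 and 84.5. Of these *Hif1a* was within 1.5-fold after scaling by the median ratio, at 1.39. The lower ones were *Pfkp*, a phosphofructokinase, at 209.1 and 130.1 FPKM, *Aldoc*, an aldolase, at 7.06 and 2.87, and *Pdk1*, an inhibitor of pyruvate oxidation, at 16.7 and 8.81.

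Both monocarboxylate carriers over 5 FPKM were lower in α-DR3. *Slc16a10*, which carries aromatic amino acids, had 36.5 FPKM in PBS and 15.8 in α-DR3, and *Slc16a1*, the lactate and pyruvate carrier, had 8.41 and 5.47.

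RefSeq windows of 300 bases, from 250 before to 50 after the start, were found for 39 of the 55 genes, and both strands were searched. An E-box (CACGTG, the site of MYC and related factors) was present in 9.80% of the 51 windows of transporters and 7.15% of all windows. An AP-1 motif (TGANTCA) was present in 9.80% and 7.81%, and the core of a metal response element (TGCGCNC or TGCACNC) in 35.3% and 25.7%. The end of an E-box can overlap the start of the metal response core. Counted by gene, the E-box was in 4 of the 39, the AP-1 motif in 5 and the metal response core in 16, against 8.09%, 8.97% and 28.2% of all genes with a window. Of the higher transporters with a window, 3 of 8 held the metal response core, and so did 3 of 14 lower ones. Of the metal ion carriers past 1.5-fold, *Slc41a1* and *Slc30a9* had a window, and the 250 bases before the start held the core in *Slc41a1* and not in *Slc30a9*.

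**Figure D3:**
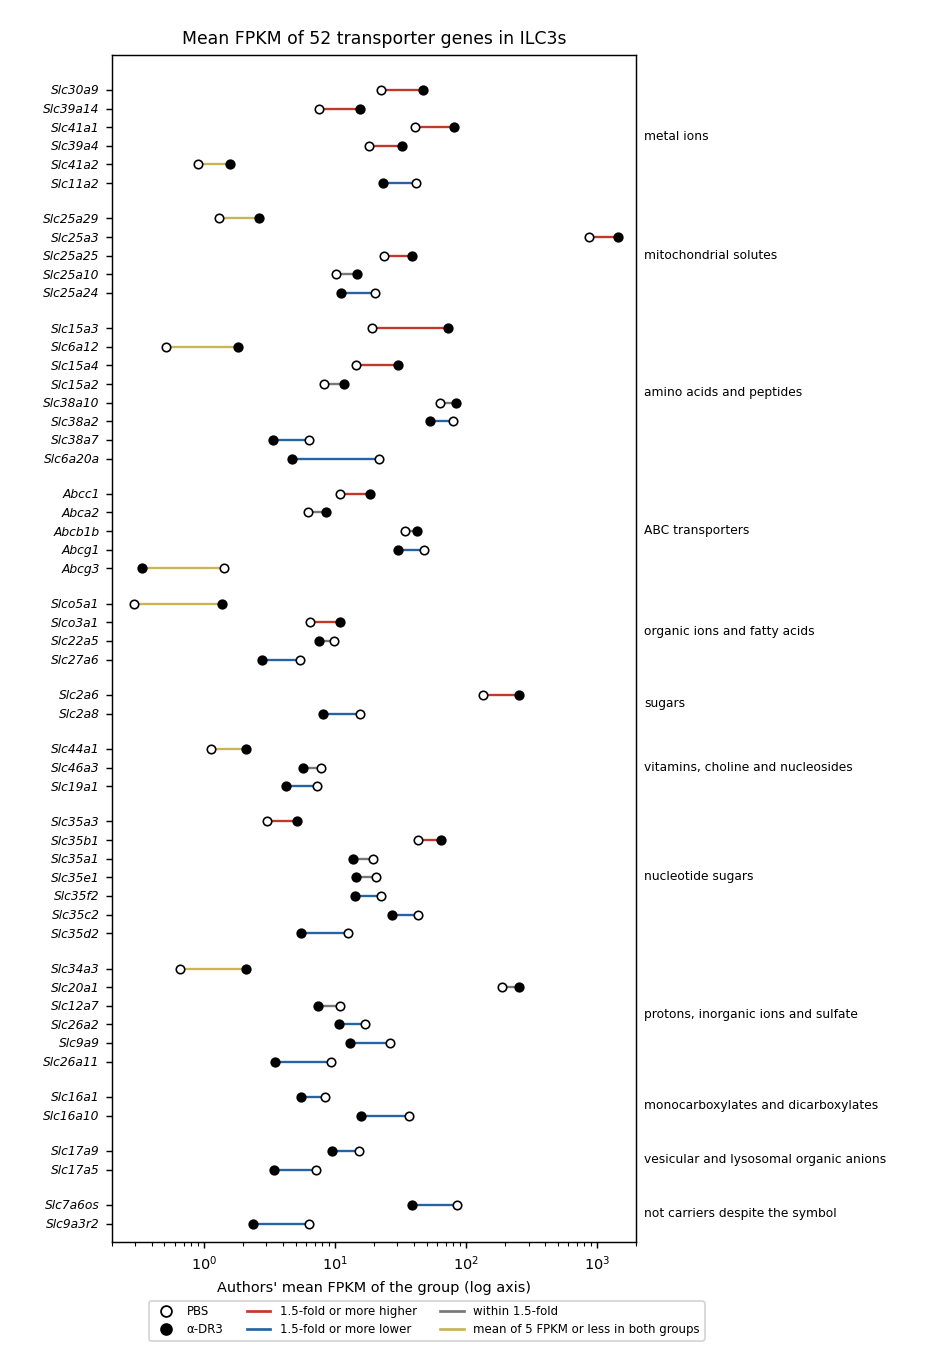
For each of 52 of the 55 genes the open circle gives the authors' mean FPKM in PBS and the filled circle that in α-DR3, on a log axis, with the line coloured by the ratio and the genes grouped by the substrate of their family. The means run from 0.295 FPKM for *Slco5a1* in PBS to 1449 for *Slc25a3* in α-DR3, and there are no error bars because only group means were used.

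Carriers of protons, inorganic ions and sulfate held 3 lower and no higher genes among 6 over 5 FPKM. *Slc26a11*, an anion and sulfate carrier, had 9.32 FPKM in PBS and 3.50 in α-DR3, 2.66-fold lower. *Slc9a9*, a proton exchanger of endosomes, had 26.2 and 13.0 FPKM, and *Slc26a2*, the sulfate carrier needed for proteoglycan synthesis, had 16.9 and 10.8. *Slc12a7*, a potassium-chloride cotransporter that lets cells shed volume, was 1.46-fold lower, just short of the limit, with 10.8 and 7.45 FPKM, and passed it under both scalings. *Slc20a1*, the phosphate importer of the plasma membrane and the second most abundant transporter in PBS, had 188 and 252 FPKM, a ratio of 1.34 that fell below 1 after division by the sums. *Slc34a3*, a phosphate carrier typical of kidney, was at 0.655 and 2.11 FPKM.

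Among 7 genes of the Slc35 family, grouped by family as nucleotide sugar carriers, 2 were higher and 3 lower. Carriers of this family supply the Golgi and endoplasmic reticulum with precursors of glycans, though not every listed member is known to do so. *Slc35d2* and *Slc35a3*, which both carry UDP-N-acetylglucosamine, differed in opposite directions, with 12.6 FPKM in PBS and 5.48 in α-DR3 for the former and 3.02 and 5.11 for the latter. *Slc35b1*, which serves the endoplasmic reticulum, was the most abundant in α-DR3, at 42.8 and 64.6 FPKM. Its ratio of 1.51 was 1.16 after scaling by the median ratio. *Slc35c2*, related to GDP-fucose carriers, had 43.4 and 27.2 FPKM, and *Slc35f2* had 22.5 and 14.3. *Slc35a1*, the CMP-sialic acid carrier, and *Slc35e1* were both 1.41 to 1.42-fold lower and within the limit as listed, and past it as lower genes under both scalings.

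**Figure D4:**
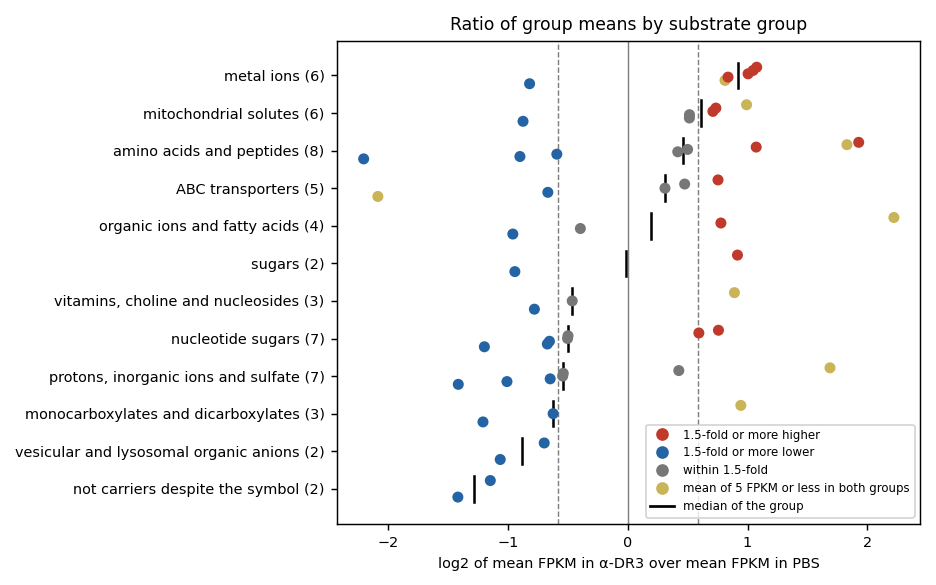
Points give the log2 ratio of mean FPKM in α-DR3 to that in PBS for each transporter gene by substrate group, with the number of genes in brackets, black bars at the group medians and dashed lines at 1.5-fold. The median is highest for metal ions, at 0.92, and lowest for the 2 genes that are not carriers, at -1.28.

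Vesicular and lysosomal organic anion carriers were lower. *Slc17a5*, the sialic acid exporter of the lysosome, had 7.14 FPKM in PBS and 3.42 in α-DR3, and *Slc17a9*, which loads ATP into vesicles, had 15.3 and 9.43. *Slc19a1*, which imports reduced folate and cyclic dinucleotides, had 7.28 and 4.25 FPKM. *Slc27a6*, a fatty acid carrier, had 5.41 and 2.79 FPKM, while *Slco3a1*, an organic anion carrier, was 1.71-fold higher, at 6.43 and 11.0. The ratio of *Slco3a1* was 1.31 after scaling by the median ratio and 1.22 after division by the sums. *Slc22a5*, the carnitine importer, and *Slc46a3*, a lysosomal carrier, lay within 1.5-fold, at 9.91 and 7.54 FPKM and at 7.80 and 5.66, and both were lower genes under both scalings. *Slc44a1*, a choline carrier, was at 1.13 and 2.10 FPKM.

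Solute carriers known from lysosomes and late endosomes did not share a direction. Of 8 such genes, a list put together after the values were seen that holds no ABC transporter and may be incomplete, *Slc15a3*, *Slc15a4* and *Slc2a6* were higher, *Slc26a11*, *Slc17a5*, *Slc2a8* and *Slc38a7* were lower, and *Slc46a3* lay between. Of 15 genes of nucleic acid sensing in endosomes, 2 were listed. *Ctss*, a protease of the endosome, was at 102 and 160.0 FPKM, a ratio of 1.57 that was 1.204 after scaling by the median ratio, and *Irf8*, a transcription factor, was within 1.5-fold at 92.3 and 133.0.

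ABC transporters were split, with 1 of 4 over 5 FPKM higher and 1 lower. *Abcc1*, an exporter of glutathione conjugates and leukotriene C, had 11.0 FPKM in PBS and 18.5 in α-DR3, a ratio of 1.69 that was 1.29 after scaling by the median ratio. *Abcg1*, an exporter of cholesterol, had 47.6 and 30.0 FPKM. *Abcb1b*, a P-glycoprotein gene, was at 34.2 and 42.4 FPKM, within 1.5-fold, and its value is uncertain because its coding sequence was identical to that of *Abcb1a* at 88.6% of bases, with a shared run of 338 bases. *Abca2*, a lipid transporter of lysosomes, was at 6.18 and 8.59 FPKM. *Abcg3* was low in both groups, at 1.42 and 0.335 FPKM.

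A further 2 genes carry an Slc symbol without being carriers, and both were lower. *Slc7a6os* (chromosome 8, 106200717 to 106210935), named for lying opposite the amino acid carrier *Slc7a6*, had 85.1 FPKM in PBS and 38.5 in α-DR3. *Slc9a3r2*, a scaffold protein that binds proton exchangers, had 6.38 and 2.39 FPKM. Without them 13 transporters were higher and 19 lower.

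Several members lay beside another listed gene. Of the 55 genes, 7 had a listed neighbour within 1000 bases, and for 6 of them both genes had ratios on the same side of 1. Of all 78 pairs of listed genes this close, 82.1% did, so the transporters' share was near the background. *Slc6a20a* lies opposite the chemokine receptor gene *Ccr9* on chromosome 9, and the annotated spans overlap. *Ccr9* had 12 FPKM in PBS and 2.75 in α-DR3, 4.36-fold lower, beside the 4.60-fold of *Slc6a20a*. The exons of these genes share 22 bases, and an antisense transcript, *Gm17120*, shares 13.8% of the exon bases of *Slc6a20a*. *Slc26a11* and *Sgsh*, a lysosomal sulfatase of heparan sulfate, face away from each other 20 bases apart on chromosome 11, and *Sgsh* had 15.6 and 4.35 FPKM, 3.59-fold lower. *Slc7a6os* and the methyltransferase gene *Prmt7* adjoin in the same way, and *Prmt7* had 14.4 and 6.67 FPKM, 2.16-fold lower beside 2.21-fold. *Slc15a3* overlaps *Tmem132a* on the opposite strand over 28.1% of its exon bases, and *Tmem132a* was at 0.745 and 2.47 FPKM. The pair on opposite sides of 1 was *Slc19a1*, which was lower, and the overlapping collagen gene *Col18a1*, at 0.595 FPKM in PBS and 1.57 in α-DR3. The library steps described hold no marking of strand, so reads from overlapping exons cannot be told apart.

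Across the families, ratios lay on the same side of 1 in 33 of the 54 pairs of listed members and on opposite sides in 21, where a gene with several relatives enters several pairs.

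Of 13 ILC3 markers, 7 were listed. *Ncr1*, a receptor of a subset of ILC3s, had 460.2 FPKM in PBS and 279 in α-DR3. *Ccr6*, *Lta* and *Ltb* were higher in α-DR3, of which *Ltb* was within 1.5-fold after scaling by the median ratio, at 1.23. None of 9 epithelial and none of 6 T and B cell markers was listed. Of 18 markers of macrophages, monocytes and neutrophils, 9 were listed, all with the higher mean in α-DR3, and they summed to 112 FPKM in PBS and 224 in α-DR3. Of that sum *Ctss* made up 102 and 160.0 FPKM, and 6 of the 9 were under 1 FPKM in PBS. *Lyz2*, the lysozyme of macrophages, had 4.09 and 37.9 FPKM, and *Cd68* had 3.11 and 7.17. Of 5 fibroblast markers, 4 were listed, with sums of 5.98 and 14.8 FPKM, and 2 of them were likewise under 1 FPKM in PBS. In the study's flow cytometry the lineage markers included CD11b and CD11c, which macrophages, monocytes and neutrophils carry. The study also reported more CD11b+ myeloid cells in the large intestine at a later time after α-DR3. Whether the sort removed all such cells was not tested. The part of these cells in the transporter values, among them that of *Slc15a3*, was not tested.

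Of 36 genes of membrane ATPases, 5 were listed, of which 2 encode ion pumps, which set up gradients that many solute carriers use, and 3 encode lipid flippases, which set up no ion gradient. *Atp2a3*, a calcium pump of the endoplasmic reticulum, had 66.7 FPKM in PBS and 39.2 in α-DR3. The lipid flippase genes *Atp8b4* and *Atp10a* were higher, with ratios of 1.63 and 1.59 that were 1.25 and 1.22 after scaling by the median ratio. Of 25 genes of amino acid sensing, 3 were listed, each with the higher mean in α-DR3. *Ddit4*, an inhibitor of mTORC signaling, had 29.1 and 63.4 FPKM, while *Rptor*, the scaffold of that complex, was at 2.68 and 4.77 and the stress factor *Atf5* at 0.855 and 1.95. Under 1 FPKM in PBS, *Atf5* could be listed only if higher in α-DR3.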

How the data were processed

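Per the study's methods and the submitters' processing notes, the authors used STAR 2.5 for alignment of the read pairs (GRCm38.p5), RSEM 1.2 with GENCODE mouse M16 for gene quantification and edgeR 3.18.1 for the comparison. The deposited table holds 2179 genes and gives only group values. Its FPKM are means of duplicates taken by the authors, its log2 mean CPM is over all 4 libraries, and its control mean, headed wt, was taken as PBS. The log2 fold changes, likelihood ratios, p-values and FDR of the authors were not used; the deposited p-value was read only to check that all 2179 rows were under 0.05. As no values per library were used, no test was run and the planned comparison of libraries was dropped. The listed gene lengths were a median of 2.37 times the lengths that CPM and FPKM imply, so levels were compared by FPKM only.

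Members, substrate groups and lists were chosen with earlier results of these data known. Members were the symbols matching the solute carrier and ABC patterns. A supplementary sheet of the paper holds values per library. The part of it at hand names 46 transporter genes, of which 6 are among the listed members and 40 are not. None of its values are used here. Genes were named if past 1.5-fold with a mean over 5 FPKM, over 20 FPKM in both groups, or highest in their substrate group, and the others were named after their values were seen. A few genes that met this rule are not reported here, although the counts include them, nor are 2 of the 3 pairs nearest in sequence. Positions came from GENCODE M21, on the authors' build, for all 55 members. Coding sequences (the longest per gene, global alignment in Biopython 1.88) replaced the planned proteins, and identity is per base of the longer sequence. The counting of calls was run on simulated means without noise and with 2-fold differences, which checks the code only. The error of calls on the real means was not tested. Python 3.11.15, numpy 2.4.6 and pandas 2.3.3 were used.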

Additional observations from a re-analysis of the deposited data

How the results depend on the processing

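No replicate error was given and no library was left out, as no values per library were used. No paired analysis was possible because only the means of each group were used. As listed, 13 transporters were higher and 21 lower, with a median log2 ratio of -0.50. The number higher was 5 after division by the median ratio, 1 after division by the sums, 6 after division by the sums without *Il22*, 20 with a mean over 1 FPKM or no filter in place of over 5, and 5 at 2-fold, where 8 were lower. The median log2 ratio was -0.89 after division by the median ratio, -0.997 by the sums, -0.76 by the sums without *Il22*, -0.47 on log2(FPKM + 1), -0.39 with a mean over 1 FPKM or no filter, and -0.50 without the genes that are not carriers. It changed sign, to 0.31, with a mean over 10 FPKM, a filter that left 35 of the 47 genes and gave 0.38 for all listed genes. Among all listed genes, 517 were higher and 625 lower as listed, 237 and 762 by the median ratio, 197 and 762 by the sums, 319 and 753 by the sums without *Il22*, 808 and 836 with a mean over 1 FPKM or no filter, and 228 and 145 at 2-fold, where the balance was opposite to that of the transporters. Leaving out *Il22* or the genes that are not carriers was chosen after seeing the data.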

Other observations

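Ion channels, water channels and other pores move solutes without being named as carriers, and 21 genes with such symbols were listed, picked by symbol after the transporters had been seen. Of these, 7 were lower in α-DR3, 4 were higher, 5 lay within 1.5-fold and 5 did not exceed 5 FPKM in either group, while 38.2% of all listed genes over 5 FPKM were lower and 31.6% higher, so the channels' counts were near the background. *P2rx7*, the ATP-gated cation channel of immune cells, had 35.5 FPKM in PBS and 9.85 in α-DR3, 3.60-fold lower. The potassium channel gene *Kcnk5* had 14.7 and 4.02 FPKM. The aquaglyceroporins, which pass water and glycerol, were lower as well, with 16.0 and 6.32 FPKM for *Aqp9* and 27.7 and 15.8 for *Aqp3*. *Mcoln2*, a cation channel of endosomes, had 16.3 and 9.28 FPKM.

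Subunits of the volume-regulated anion channel did not share a direction. *Lrrc8a*, the subunit every such channel needs, had 6.85 FPKM in PBS and 4.42 in α-DR3, and *Lrrc8c* had 30.1 and 21.8, whereas *Lrrc8d*, which favours the passage of organic solutes, had 18.2 and 29.4. The calcium channel gene *Cacna1g* was low in PBS, with 4.75 and 13.0 FPKM. The proton channel gene *Hvcn1* was within 1.5-fold, at 52.2 and 76.2 FPKM. No test was run on these means, and dividing α-DR3 by the sums would lower each of its values 1.41-fold relative to PBS.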
